A study of Rattus norvegicus with 6 samples.

Results

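The genes described here take up, store, release and export iron or break down heme, and were read from RNA-seq of rat cortical astrocytes in a tissue-engineered rostral migratory stream (TE-RMS) and in planar culture. The TE-RMS is a bundle of longitudinally aligned astrocytes that forms in a collagen-coated hydrogel microchannel and mimics the glial tube along which neuroblasts migrate in the brain. The names were Hmox1, Slc40a1, Ftl1, Fth1, Blvrb and Tfrc, and a gene was kept where the supplement of the paper pairs its name with an Ensembl identifier of the count table. Of the 6 names, 4 were paired, so Hmox1, Slc40a1, Ftl1 and Tfrc are 4 of the 23940 genes listed. Fth1 and Blvrb, the ferritin heavy chain and biliverdin reductase B genes, were not paired in the rows that were read and are not analysed here. The 4 genes were chosen with their TE-RMS to planar ratios known, so these ratios are given as a description and carry no test.

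All 6 libraries came from passage 4 cortical astrocytes of Sprague-Dawley pups taken on postnatal day 0 or 1, with no allele or drug that set one group apart. The 3 TE-RMS libraries (TERMS in the labels) and the 3 planar libraries (2Dastro) formed 3 runs, called July, September and October here, with 1 library of each kind per run. Within a run both cultures came from sister flasks, received the same TE-RMS culture medium and were taken on the same day in vitro. Each TE-RMS library was a pool of TE-RMSs made on 3 sequential days, with a separate flask for each day. They had been selected under the microscope for tight bundling and kept in RNAlater. Planar astrocytes were plated on collagen in wells on the last of these days only, and were extracted fresh. Selection, storage, pooling over days and flasks, and culture format therefore cannot be told apart. Planar libraries held 70682593, 70478784 and 56483332 counts in July, September and October, and TE-RMS libraries held 54601354, 77277336 and 64537115. Levels are counts per 1000000 counts of a library after TMM normalisation (CPM), and they measure RNA, not protein. In these bulk samples fewer cells of a type and less RNA per cell cannot be told apart. Where 3 levels of a condition follow each other, they are in the order July, September and October.

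Heme oxygenase, the product of Hmox1, opens the heme ring and sets free iron, carbon monoxide and biliverdin, and biliverdin reductases turn biliverdin into bilirubin. Freed iron is stored inside ferritin shells built of light and heavy chains, or leaves the cell through ferroportin, the only known iron exporter of mammalian cells, which Slc40a1 encodes. The transferrin receptor, from Tfrc, brings transferrin-bound iron into the cell. Iron regulatory proteins set the translation of ferritin and ferroportin mRNA and the stability of Tfrc mRNA, and the factor Nrf2, encoded by Nfe2l2, is known to activate Hmox1, Slc40a1 and ferritin genes. In brain, astrocytes take part in iron handling and raise Hmox1 under oxidative stress.

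The RefSeq promoter table (build GRCr8) held an entry for Slc40a1 and for Tfrc, the export and the uptake gene, which both stood higher in TE-RMS astrocytes. The 250 bases before the annotated start are shown so that the letters in front of these genes can be read beside their values. The Slc40a1 stretch lies on the minus strand at chr9:55543461-55543710 and the Tfrc stretch on the minus strand at chr11:81690319-81690568. Capitals mark matches to any of the motifs searched on both strands, which were TGACNNNGC (antioxidant response element core), TGANTCA (AP-1 site), ACGTG (hypoxia response element core) and TATAA (TATA box core).
Slc40a1: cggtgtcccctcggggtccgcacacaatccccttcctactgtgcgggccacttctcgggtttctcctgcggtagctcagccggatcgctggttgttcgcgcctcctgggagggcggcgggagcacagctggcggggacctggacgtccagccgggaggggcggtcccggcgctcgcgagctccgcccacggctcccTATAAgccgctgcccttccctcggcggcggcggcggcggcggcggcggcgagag
Tfrc: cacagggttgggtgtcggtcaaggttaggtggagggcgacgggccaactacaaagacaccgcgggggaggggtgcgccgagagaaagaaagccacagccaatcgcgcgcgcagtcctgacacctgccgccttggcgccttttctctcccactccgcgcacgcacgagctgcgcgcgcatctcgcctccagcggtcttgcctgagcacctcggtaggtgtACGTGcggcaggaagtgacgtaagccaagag
In Slc40a1 a TATAA match began at base -54 counted from the start, and no other motif matched. In Tfrc an ACGTG match began at base -31, and no other motif matched. Of 27457 promoter stretches of the same length, 24.1% held TATAA, 16.9% ACGTG, 10.2% TGACNNNGC and 6.36% TGANTCA, so such matches were common. Matches to different motifs can overlap, and a match is a string of letters, not a shown binding site. The stretches were rich in G and C, at 74.0% for Slc40a1 and 64.8% for Tfrc, against a median of 52.0% over all stretches.

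Hmox1, the gene of the heme-degrading enzyme, was several-fold higher in the TE-RMS of every run than in its planar culture. The gene (ENSRNOG00000014117, chromosome 19 of mRatBN7.2 from 13467244 to 13474079) reached 67.0 CPM in July, 116 in September and 84.0 in October in planar culture. In TE-RMSs it reached 658 CPM in July, 674 in September and 594 in October. The lowest TE-RMS library stood 5.14-fold above the highest planar library, so the groups did not overlap. The mean was 88.9 ± 24.7 CPM (SD, n = 3) for planar culture and 642 ± 42.0 CPM (SD, n = 3) for TE-RMSs, and the fitted log2 fold change was 2.89. Within runs TE-RMS astrocytes had 9.83-fold more Hmox1 RNA in July, 5.82-fold in September and 7.07-fold in October. The TE-RMS libraries lay within 1.13-fold of each other and the planar libraries within 1.73-fold, so the ratios differed between runs mainly through the planar level, which was lowest in July and highest in September.

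Slc40a1, the iron exporter gene, had the largest mean ratio of the 4 genes and also the one that varied most between runs. Its lead over Hmox1 came from September, since in July and October the ratio of Hmox1 was the larger one. In planar culture the gene (ENSRNOG00000003872, chromosome 9 from 48033526 to 48051481) gave 554 counts (8.19 CPM) in July, 767 (10.6 CPM) in September and 905 (15.0 CPM) in October. In TE-RMSs it gave 4483 counts (79.1 CPM) in July, 13030 (181 CPM) in September and 6492 (102 CPM) in October. Every TE-RMS library was above every planar library, by at least 5.28-fold, and the September TE-RMS library was 2.29-fold above the July one. The mean was 11.3 ± 3.44 CPM (SD, n = 3) for planar culture and 121 ± 53.5 CPM (SD, n = 3) for TE-RMSs, with a fitted log2 fold change of 3.38. The ratio within runs was 9.66-fold in July, 17.1-fold in September and 6.83-fold in October, and with the September run left out the log2 fold change was 3.02. The count of 554 was the lowest of any of the 4 genes in any library, and its exact Poisson 95% interval of 509 to 602 shows that counting error was small beside these ratios. That interval covers counting error only.

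Ftl1, the ferritin light chain gene, was the most evenly shifted of the 4 genes. The gene (ENSRNOG00000064385, chromosome 1 from 95936387 to 95939725) reached 2325 CPM in July, 2822 in September and 2177 in October in planar culture. In TE-RMSs it reached 5325.5 CPM in July, 6775 in September and 5162 in October, with no overlap between groups. The mean was 2441 ± 338 CPM (SD, n = 3) for planar culture and 5754 ± 888 CPM (SD, n = 3) for TE-RMSs, a fitted log2 fold change of 1.24. September was the highest run in both conditions, and the ratio hardly moved between runs, at 2.29-fold in July, 2.40-fold in September and 2.37-fold in October. The SD of its 3 log2 ratios was 0.035, and none of the other genes among the 92 with a mean of at least 1000 CPM had a smaller one. The median SD of those 92 genes was 0.30. Names reached only genes with small p-values in the run-paired contrast, which favours even ratios. The place of Ftl1 among the 92 genes is therefore a description and no support.

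Tfrc, the uptake receptor gene, was higher in TE-RMS astrocytes too, and its planar level differed most between runs. The gene (ENSRNOG00000001766, chromosome 11 from 68163413 to 68185257) reached 41.3 CPM in July, 22.6 in September and 16.9 in October in planar culture. In TE-RMSs it reached 94.2 CPM in July, 86.3 in September and 80.7 in October, and the lowest of these was 1.96-fold above the highest planar library. The mean was 26.9 ± 12.8 CPM (SD, n = 3) for planar culture and 87.1 ± 6.80 CPM (SD, n = 3) for TE-RMSs, with a fitted log2 fold change of 1.79. The ratio was 2.28-fold in July, 3.82-fold in September and 4.79-fold in October. The TE-RMS libraries lay within 1.17-fold of each other while the planar libraries spread over 2.45-fold. As for Hmox1, the planar level thus set most of the difference between the ratios. Only the TE-RMS libraries were pools over 3 fabrication days, and the part of this in their closer levels was not tested. July gave the largest ratio for Hmox1 and the smallest for Tfrc.

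**Figure D1:**
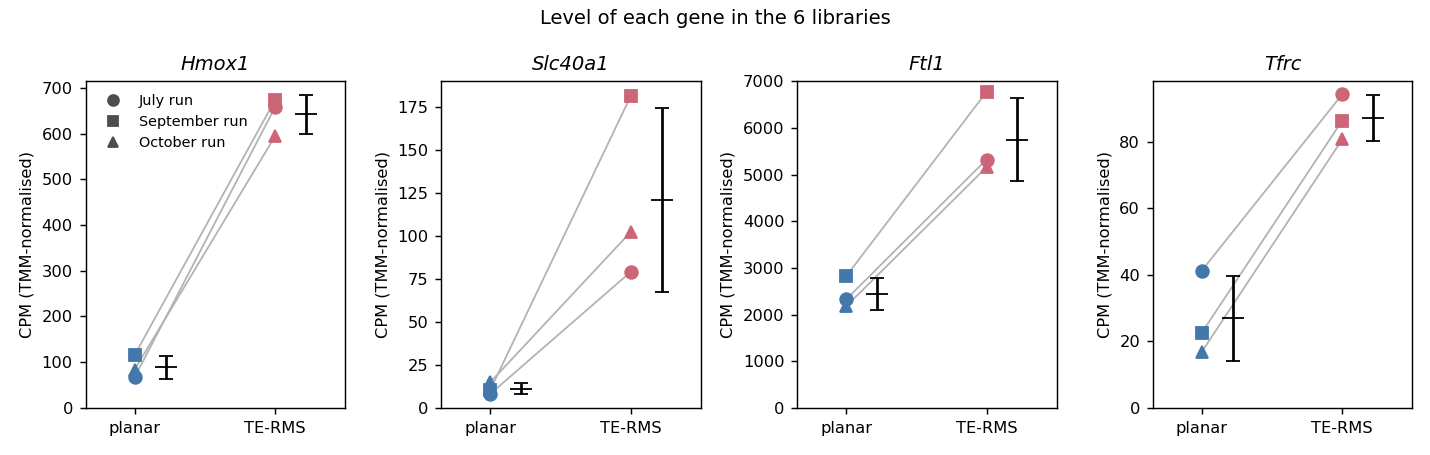
Level of Hmox1, Slc40a1, Ftl1 and Tfrc in CPM (linear axes from 0) in 3 planar (blue) and 3 TE-RMS (red) libraries, with a marker shape for each run, grey lines joining the libraries of a run, and black bars for the mean and SD. No TE-RMS library falls in the planar range of its gene, and Slc40a1 is set apart by its September TE-RMS library at 181 CPM.

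All 4 genes passed the filter of at least 10 counts in total, and all 4 were called higher in TE-RMS astrocytes by the quasi-likelihood test of edgeR, in which the run was a block. Over all 16331 tested genes 9.36% were called higher, and because the genes were chosen on this contrast nothing is read from their count. The 3 TE-RMS libraries lay above the 3 planar libraries for all 4 genes, against 13.2% of tested genes, and 22.5% of tested genes were higher in the TE-RMS library of each run. A log2 ratio over 1 in each of the 3 runs, which all 4 genes had, was found for 2.56% of tested genes. The SD of the log2 ratios over runs was 0.38 for Hmox1, 0.67 for Slc40a1 and 0.55 for Tfrc, beside a median of 0.30 over the 7637 genes with a mean of at least 11.3 CPM, the planar mean of Slc40a1.

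The difference between runs itself was not used in choosing the genes, and it could be tested. Naming through small p-values of the paired contrast, however, favours genes with little spread beyond condition and run. That spread also enters the test of runs, for these and the other paired genes, so all tested genes are not a like set. The run terms were tested jointly in edgeR's quasi-likelihood model with the condition in the model and Benjamini-Hochberg adjustment over all genes. None of the 4 genes passed an adjusted p of 0.05, at which 3.21% of the tested genes were called. The adjusted p was 0.246 for Slc40a1 and for Tfrc, 0.562 for Ftl1 and 0.563 for Hmox1. Before adjustment, Slc40a1 and Tfrc, 2 of the 4 genes, were under 0.05 in the same edgeR test, as were 15.6% of all tested genes. DESeq2's likelihood ratio test and limma-voom called 0 of the 4. The planar level of Slc40a1 was lowest in July and highest in October, and that of Tfrc was in the reverse order. With 3 runs, this does not show that levels were equal between runs.

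Ferritin light chain has many near-identical copies in the rat genome, and Salmon divides reads that fit several of them by probability, so the level of Ftl1 alone is uncertain. The supplement describes 4 further rows as ferritin light chain, which are LOC100359668 (ferritin light chain 2), LOC120102993 and LOC100362384 (both ferritin light chain 1-like) and Ftl1-ps14 (a pseudogene). All 4 were higher in TE-RMS astrocytes in each run. LOC100359668, on chromosome 6 from 73242608 to 73253291, stood at 423, 571 and 339.9 CPM in planar and at 908, 1298 and 951 CPM in TE-RMS astrocytes. LOC120102993, on chromosome 5 from 144647541 to 144648477, stood at 594, 739 and 519.5 CPM in planar and at 1317, 1785 and 1042 CPM in TE-RMS astrocytes. Their log2 fold changes were 1.26 and 1.14, close to that of Ftl1. Ftl1-ps14, on chromosome 2 from 61543323 to 61578556, stood at 933, 1109 and 984 CPM in planar and at 1932, 2411 and 1971 CPM in TE-RMS astrocytes. LOC100362384, on chromosome 13 from 83117297 to 83118233, stood at 337, 507 and 490.3 CPM in planar and at 719, 950.1 and 869 CPM in TE-RMS astrocytes. The log2 fold changes of these 2 rows were lower, at 1.06 and 0.94. These rows also come from the part of the supplement with the smallest p-values, so their direction is no independent support.

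Summing the 5 rows removes the division of reads among them. The sum came to 4608, 5750.4 and 4511 CPM in planar and to 10206, 13215 and 9996 CPM in TE-RMS astrocytes. It stood 2.21-fold higher in TE-RMS astrocytes in July, 2.30-fold in September and 2.22-fold in October, with a log2 fold change of 1.17 against 1.24 for Ftl1 alone. The even ratio between runs thus held for the sum, whose log2 ratios had an SD of 0.031 (n = 3), and less closely for Ftl1-ps14 at 0.059. The other 3 rows had wider SDs, at 0.20 for LOC100359668, 0.13 for LOC120102993 and 0.14 for LOC100362384. Ftl1 received 49.3% ± 1.08 (SD, n = 3) of the counts of the 5 rows in planar and 51.7% ± 0.48 (SD, n = 3) in TE-RMS libraries. Rows of the family that the supplement's read part does not name are not in the sum.

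**Figure D2:**
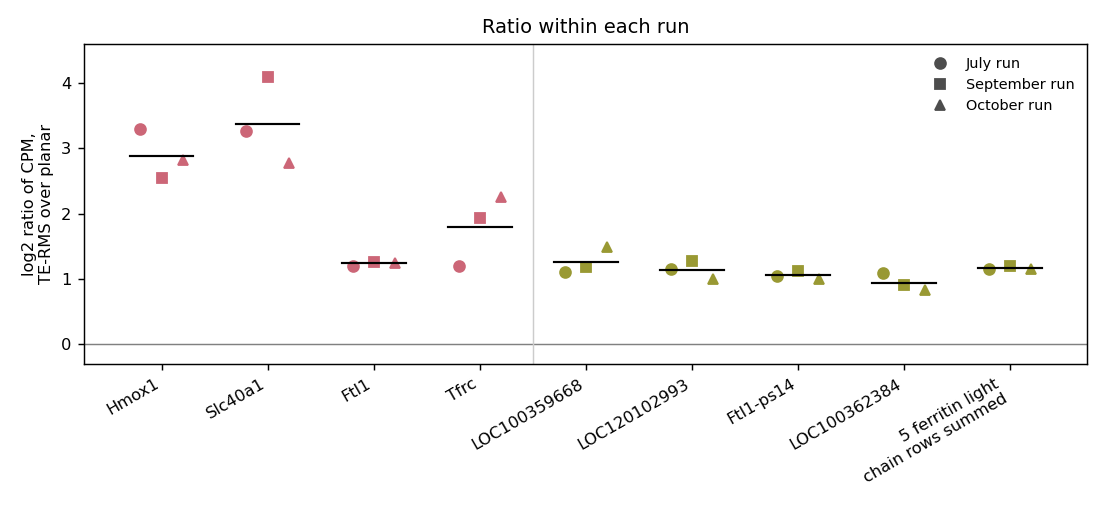
Log2 ratio of CPM, TE-RMS over planar, within each run (marker shape) for the 4 genes (red), the 4 other ferritin light chain rows and the sum of all 5 rows (olive), with a black line at the mean of the 3 runs. All points lie above 0, the Ftl1 points fall together near 1.24, and Slc40a1 spreads from 2.77 to 4.09.

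Other genes of heme and iron metabolism were taken from lists of heme breakdown and transport, heme synthesis, iron uptake, export, storage and sensing, and transcription factors, with 96 symbols in all. Of these, 13 could be paired, the 4 genes above and 9 others. The pairing reaches only genes with small p-values in the same contrast, so all 9 others were called, 5 higher and 4 lower in TE-RMS astrocytes, and the lists as wholes cannot be judged. Of all tested genes 9.36% were called higher and 9.28% lower, and without the October run 992 genes in place of 1516 were called lower.

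In heme transport, the paired genes were the membrane proteins Pgrmc1 and Pgrmc2, which bind heme, and they went in opposite directions. Pgrmc1 stood at 416, 519 and 371 CPM in planar and at 737, 1308 and 1021 CPM in TE-RMS astrocytes, a log2 fold change of 1.21. Pgrmc2 stood at 48.4, 42.6 and 47.6 CPM in planar and at 26.7, 19.1 and 19.5 CPM in TE-RMS astrocytes, and fell by 1.10 on the log2 scale. Neither gene overlapped between conditions. Nfs1, the cysteine desulfurase that supplies sulfur for iron-sulfur clusters, stood at 29.7, 43.9 and 33.2 CPM in planar and at 82.0, 84.5 and 81.6 CPM in TE-RMS astrocytes, a log2 fold change of 1.24.

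In iron storage, Ncoa4, the receptor that carries ferritin to lysosomes so that its iron is released, was higher beside Ftl1. Ncoa4 stood at 72.7, 80.1 and 65.1 CPM in planar and at 159, 133 and 129 CPM in TE-RMS astrocytes, a log2 fold change of 0.95. In iron uptake, genes other than Tfrc were lower. Slc22a17, the receptor of the siderophore-binding protein lipocalin 2, stood at 79.7, 73.5 and 120 CPM in planar and at 51.8, 30.4 and 47.8 CPM in TE-RMS astrocytes, and fell by 1.08 on the log2 scale. Prnp, the prion protein, for which a ferrireductase role has been described, stood at 154, 318 and 421 CPM in planar and at 77.9, 139 and 130.5 CPM in TE-RMS astrocytes, and fell by 1.29 on the log2 scale. Of the paired heme and iron genes, Prnp was the one called between runs in the joint edgeR test (adjusted p = 0.0316). The uptake list thus held a gene that was higher and 2 that were lower among its 3 paired members of 17.

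Among the transcription factors, Nfe2l2, which encodes Nrf2, was higher by less than the 4 genes. It stood at 595, 1027 and 520.3 CPM in planar and at 1000.2, 1535 and 972 CPM in TE-RMS astrocytes, a log2 fold change of 0.74. The conditions overlapped, since the September planar library was above the July and October TE-RMS libraries, although the TE-RMS library was the higher one within each run. Nfe2l1, a related factor that drives proteasome genes, stood at 80.0, 61.0 and 109.6 CPM in planar and at 39.9, 31.5 and 32.5 CPM in TE-RMS astrocytes, and fell by 1.24 on the log2 scale. Hif1a, the oxygen-regulated factor known to activate Tfrc and Hmox1, stood at 106, 95.3 and 110.2 CPM in planar and at 168, 217 and 223 CPM in TE-RMS astrocytes, a log2 fold change of 0.95. The activity of these factors was not measured.

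**Figure D3:**
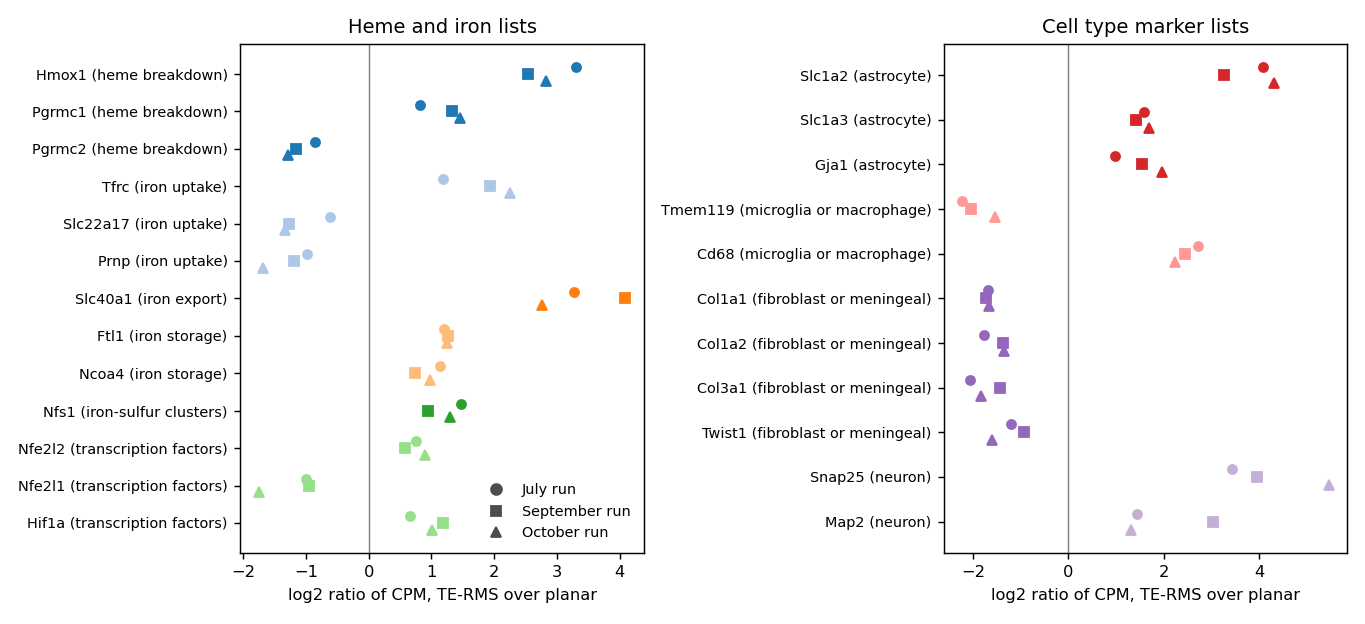
Log2 ratio of CPM, TE-RMS over planar, in each run (marker shape) for the paired genes of the heme and iron lists (left) and of the cell type marker lists (right), with colours for the lists. Pgrmc2, Slc22a17, Prnp and Nfe2l1 lie below 0 in all 3 runs and the other 9 heme and iron genes above it.

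For each of the 4 genes the 3 named genes with the most similar pattern over the 6 libraries were found, by the Euclidean distance of log2 CPM after centring each gene. The distance falls mostly on the difference between conditions, which these genes share by selection. Cat, the hydrogen peroxide degrading enzyme catalase, was nearest to Slc40a1 at a distance of 0.54, well before Samd5 at 1.11 and Entpd5 at 1.14. Cat stood at 39.8, 49.4 and 58.4 CPM in planar and at 267, 582 and 369.9 CPM in TE-RMS astrocytes, so the order of the libraries was that of Slc40a1 in TE-RMS astrocytes and in planar astrocytes. Hmox1 was nearest to Ugt1a8, a UDP-glucuronosyltransferase whose reads can be shared with other genes of its cluster, at 0.84, then Abce1, a ribosome recycling factor, at 0.92 and Cat at 0.93. Tfrc was nearest to Maoa, monoamine oxidase A, at 0.45, then Gmfb at 0.54 and Tmem185b at 0.55. Maoa stood at 111, 76.6 and 68.8 CPM in planar and at 299, 258 and 277 CPM in TE-RMS astrocytes, with the highest planar level in July as for Tfrc. Ftl1 was nearest to Tmx3, a disulfide isomerase of the endoplasmic reticulum, at 0.11, then Chuk at 0.14 and Copb1 at 0.17. Among the 4 genes themselves, Ftl1 and Tfrc and likewise Hmox1 and Slc40a1 were the nearest pairs, both at 1.22.

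Markers of cell types were checked because macrophages and microglia are known for high Hmox1 and Slc40a1. The markers were paired through the same rows with small p-values, so every paired marker was called, beside 9.36% of all tested genes called higher and 9.28% lower, and their counts of calls are fixed by the pairing. Of 10 astrocyte markers 3 could be paired, and all 3 were present in each library and higher in the TE-RMS library of each run. Slc1a3, the glutamate transporter GLAST, stood at 241, 253 and 275 CPM in planar and at 722, 674 and 882 CPM in TE-RMS astrocytes. Gja1, which encodes connexin 43, stood at 275, 282 and 222 CPM in planar and at 543, 814 and 862 CPM in TE-RMS astrocytes. Gja1 was the higher of these 2 markers in the July and September planar and the September TE-RMS libraries and Slc1a3 in the other 3. Gja1 had a log2 fold change of 1.49, and Slc1a2, the glutamate transporter GLT-1, was at 0.413 to 1.33 CPM in planar and 7.44 to 20.8 CPM in TE-RMS libraries. Together the 3 markers summed to 516, 537 and 499 CPM in planar and 1273, 1501 and 1765 CPM in TE-RMS libraries. Markers such as Gfap and Aqp4 were not paired and are not analysed here by name.

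Of 19 microglia or macrophage markers, only Cd68 and Tmem119 could be paired, and they went in opposite directions. Cd68, a lysosomal protein abundant in macrophages, stood at 1.30, 15.6 and 0.778 CPM in planar and at 8.69, 85.4 and 3.75 CPM in TE-RMS astrocytes. Within runs Cd68 was 6.68-fold higher in TE-RMS astrocytes in July, 5.46-fold in September and 4.82-fold in October, beside 9.83-fold, 5.82-fold and 7.07-fold for Hmox1. Tmem119, a microglial membrane protein, stood at 24.6, 23.2 and 26.5 CPM in planar and at 5.26, 5.60 and 9.14 CPM in TE-RMS astrocytes. Their sum was 25.9, 38.8 and 27.2 CPM in planar and 14.0, 91.0 and 12.9 CPM in TE-RMS libraries, and neither gene was at 0 in any library. Cd68 was thus highest in September in both conditions. Hmox1, Slc40a1 and Ftl1 were highest in the September TE-RMS library as well. Their TE-RMS libraries, however, lay within 1.13-fold, 2.29-fold and 1.31-fold of each other, against 22.8-fold for Cd68. In planar culture Hmox1 and Ftl1 were highest in September too, but Slc40a1 in October. The part of other cells in the ratios of the 4 genes was not tested. Cd68 differed between runs (adjusted p = 3.53e-05 in the same joint edgeR test). Tmem119 (adjusted p = 0.652) and Slc40a1 did not pass that test, and whether either differs from Cd68 in this was not tested.

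**Figure D4:**
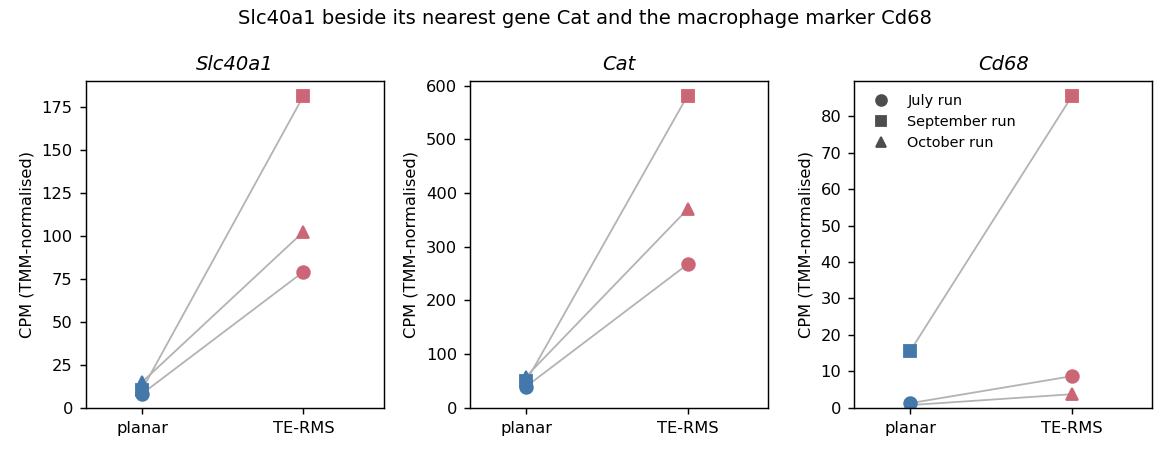
Level of Slc40a1, Cat and Cd68 in CPM (linear axes from 0) in the planar (blue) and TE-RMS (red) libraries, with a marker shape for each run and lines joining the libraries of a run. All 3 genes are higher in the TE-RMS library of each run and highest in the September TE-RMS library, and Cd68 is at 15.6 CPM in the September planar library.

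The other marker lists moved in several directions. The fibroblast or meningeal genes Col1a1, Col1a2, Col3a1 and Twist1, 4 paired of 8, summed to 676, 475 and 734 CPM in planar and to 193, 186 and 262 CPM in TE-RMS astrocytes, with Col1a2 the highest in CPM. All 4 were lower in the TE-RMS library of each run, although the conditions overlapped for Col3a1 and Twist1. Col3a1, a fibrillar collagen gene, stood at 212, 57.6 and 47.6 CPM in planar and at 51.0, 21.1 and 13.3 CPM in TE-RMS astrocytes. July was thus highest and October lowest in both conditions, as for Tfrc. The other paired markers of this list did not follow that order. Col1a1 stood at 112, 93.6 and 184.5 CPM in planar and at 34.7, 28.4 and 58.0 CPM in TE-RMS astrocytes. Col1a2 stood at 321, 244 and 402 CPM in planar and at 94.1, 94.1 and 158 CPM in TE-RMS astrocytes. Both were highest in October in each condition. Twist1, at 30.5, 80.3 and 99.6 CPM in planar and 13.3, 41.9 and 32.7 CPM in TE-RMS astrocytes, was lowest in July in each. In the joint edgeR test of the runs the adjusted p was 0.000514 for Col3a1, 0.00468 for Twist1 and 0.0235 for Col1a1. Col1a2 did not pass that test (adjusted p = 0.134). The part of these markers in the ratios of Hmox1, Slc40a1, Ftl1 and Tfrc was not tested. Of 6 neuron markers, Snap25 and Map2 were paired, and both were higher in the TE-RMS library of each run, with a sum of 12.7, 7.63 and 5.94 CPM in planar and 34.9, 91.3 and 18.1 CPM in TE-RMS libraries. Map2, a microtubule-associated protein, stood at 12.7, 3.70 and 5.89 CPM in planar and at 34.5, 30.5 and 14.6 CPM in TE-RMS astrocytes. Snap25, a protein of synaptic vesicle release, gave 1, 284 and 3 counts in planar and 26, 4374 and 222 counts in TE-RMS astrocytes. The September TE-RMS library thus stood out for Snap25, at 60.8 CPM, as it did for Cd68. Slc40a1 was highest in that library as well, but its TE-RMS libraries lay within 2.29-fold of each other, against 133-fold for Snap25. Snap25 differed between runs (adjusted p = 4.35e-05 in the joint edgeR test), and Map2 did not pass that test (adjusted p = 0.239). The part of Snap25 and Map2 in the ratios of the 4 genes was not tested. None of the paired markers was at 0 in any library. Of the 7 erythroid and 5 endothelial markers 0 could be paired, so red cell RNA, which carries heme proteins, was not analysed here. Oligodendrocyte markers are not analysed here either.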

How the data were processed

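Gene-level RNA-seq counts of 6 libraries were analysed, 3 of TE-RMS and 3 of planar astrocytes. The authors used fastp for trimming, Salmon for quantification against Ensembl transcripts (mRatBN7.2), and tximeta with biomaRt to collapse transcripts to genes. The versions of fastp and Salmon are not given in the sources used here. The authors deposited raw estimated counts, already rounded to whole numbers, which were used as they are. The library kit did not mark strand, so reads of overlapping antisense genes cannot be told apart. The labels name no animals, but the paper reports that the astrocytes of each run came from different animals. The p-values set a difference against the spread between these samples that the model of condition and run left over.

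A total of 10 or more counts was required of a gene, which left 16331 of 23940. TMM factors and quasi-likelihood fits came from edgeR 4.0.16 (R 4.3.3). The model held condition and run, since the methods pair libraries of a run, and p-values were adjusted by Benjamini-Hochberg with a threshold of 0.05. Deviations from the condition mean correlated at 0.18 to 0.27 across genes between libraries of the same run. Fitted log2 fold changes used a prior count of 0.125, and log2 ratios within runs a prior count of 2. DESeq2 1.42.0, limma 3.58.1, other scalings and filters, no block and each run left out were alternatives. The code was tested on simulated data. Libraries of one condition differed by far more than counting noise, with a chi-square per degree of freedom of 250 to 360.

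Names come from the 1517 rows of the paper's supplementary table of genes that were read, those with the smallest p-values. Its columns of fold changes and p-values were not used. Named genes are the paired members, rows described as ferritin light chain, paired genes of the pathway and marker lists, and 3 neighbours of each member. Some genes of these lists are not reported here and were left out of the lists before their counts and sums were made. The members, lists and motifs were chosen with earlier results of these data or the sequences known.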

Additional observations from a re-analysis of the deposited data

How the results depend on the processing

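Every alternative kept all 4 genes higher in TE-RMS astrocytes. Over scalings, tools, filters, prior counts, the fit without the block and each run left out, the log2 fold change was 2.68 to 3.06 for Hmox1, 3.02 to 3.72 for Slc40a1, 1.19 to 1.27 for Ftl1 and 1.59 to 2.10 for Tfrc. Ftl1 moved by more than the small SD of its ratios with upper-quartile scaling and with library totals only, to 1.19 in both, and to 1.17 when the 5 ferritin light chain rows were summed. Without the replicate block the log2 fold changes were 2.85, 3.42, 1.24 and 1.69 for Hmox1, Slc40a1, Ftl1 and Tfrc, and 1441 genes were called in place of 3044, 708 higher and 733 lower. With a run left out, 992 to 1657 genes were called lower, the fewest without October. The 525 genes called between runs became 1245 with DESeq2's likelihood ratio test and 224 with at least 10 counts in at least 3 libraries, and 419 to 833 with a run left out, the most without July. None of the 4 genes was called between runs under any of the alternatives run. Why these counts moved was not tested. The names reach only genes with small p-values, and 3 runs limit the precision of every ratio.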
